A study of Homo sapiens with 6 samples.

Results

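Transcripts of 10 genes that restrain MAP kinase signalling were followed in MCF10DCIS.com cells in which WDR5 was silenced. The genes were taken by name: the phosphatases DUSP1, DUSP4, DUSP5 and DUSP6, the Sprouty genes SPRY1, SPRY2 and SPRY4, the Sprouty-related genes SPRED1 and SPRED2, and PHLDA1. They were chosen with earlier results of these data known. All 10 were found among the 26334 genes of the count table, and all 10 were among the 16117 genes with enough reads to test. MCF10DCIS.com is a human breast cancer cell line that forms ductal carcinoma in situ-like lesions in mice, and WDR5 is a core subunit of the complexes that methylate lysine 4 of histone H3. Control cells (shLuc, 3 libraries) carried the vector pRSI-U6-shLuc-UbiC-TagRFP-2A-Puro with a hairpin against luciferase. WDR5-silenced cells (shWDR5, 3 libraries) carried pRSI-U6-shWDR5-UbiC-TagRFP-2A-Puro. Both vectors encode a red fluorescent protein and a resistance gene, and both groups were selected in puromycin and grown in DMEM/F12 with horse serum. The study's methods describe pooled WDR5 hairpins for its infected cells, and with a single shWDR5 group an effect of the hairpins on other genes cannot be told apart from an effect of WDR5 loss. The question was whether transcripts of these feedback genes differed between silenced and control cells. Poly-A RNA was sequenced to 48500509, 38218108 and 39327358 counted reads in shLuc replicates 1, 2 and 3, and to 47723477, 57640167 and 46097058 reads in shWDR5 replicates 1, 2 and 3. The study's methods describe its data in general as biological triplicates unless stated otherwise, but neither the methods text used here nor the labels say that these libraries came from separate cultures, so the p-values measure only the spread between these libraries, which may be technical.

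The MAP kinase cascade passes growth factor signals from receptors through RAS, RAF and MEK to ERK, which turns on transcription of its own inhibitors. DUSP proteins are phosphatases that remove the activating phosphates from MAP kinases, while Sprouty and SPRED proteins act upstream, on signalling between the receptor and RAF. PHLDA1, a pleckstrin homology-like domain protein, is likewise induced by growth factors and restrains receptor signalling. Because ERK itself induces most of these genes, their transcripts are widely read as a record of pathway output in epithelial and tumour cells.

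Silencing of the targeted gene was seen in each library. WDR5 (chr9:137001210-137025094, hg19, plus strand) stood at 52.6, 48.5 and 51.4 CPM (counts per 1000000 reads, scaled by TMM library factors) in shLuc replicates 1, 2 and 3 and at 23.4, 24.4 and 20.8 CPM in shWDR5. The groups did not overlap, and WDR5 was 2.22-fold lower in shWDR5 (log2 fold change -1.15, SE 0.0737, adjusted p = 8.67e-07, edgeR's quasi-likelihood test). Unless another test is named, p-values below come from the same test, adjusted over all 16117 genes by the Benjamini-Hochberg method. Breast epithelial markers were abundant in both groups, and their most abundant gene was KRT17. All 8 were tested, and their summed level was 7577, 7262 and 7115 CPM in shLuc and 10360, 9265 and 9735 CPM in shWDR5. Of 6 fibroblast markers 1, LUM, and of 5 immune markers 1, CD3E, had no read in any library. Among markers too scarce to test, COL1A2 had 0, 0 and 0 reads in shLuc and 1, 4 and 2 in shWDR5. PTPRC had 1, 0 and 1 reads in shLuc and 7, 4 and 4 in shWDR5. For the other untested markers the groups overlapped. Fibroblast markers summed to 23.7, 22.8 and 21.6 CPM in shLuc and 17.8, 14.9 and 15.5 CPM in shWDR5, nearly all from COL1A1. Immune markers summed to 14.1, 14.5 and 12.0 CPM in shLuc and 13.2, 11.2 and 11.5 CPM in shWDR5, mostly from CD68, and endothelial markers to 7.63, 7.58 and 7.93 CPM and 4.71, 5.05 and 5.36 CPM, mostly from PECAM1. In each of these 3 lists 2 genes had enough reads to test, and 1 fell, COL1A1, CD14 and PECAM1, at -0.50, -1.05 and -0.71 on the log2 scale. Of the 8 epithelial markers, 4 rose (the basal genes KRT5, KRT14, KRT17 and TP63), 2 fell (CDH1 and EPCAM) and 2 were not called (KRT8 and KRT18). At the same threshold, an adjusted p under 0.05, 56.5% of all tested genes were called, 26.6% higher and 29.9% lower. The largest keratin change by read level was that of KRT17, from a mean of 2159 to 4131 CPM (adjusted p = 1.52e-06). RNA of CDH1, which encodes E-cadherin, went from 496 to 242 CPM (adjusted p = 2.64e-07). For CDH1 protein, the study's western blots in this line showed no significant change of the total after silencing. The part of these marker changes in the results below was not tested. In bulk RNA, fewer cells expressing a gene and less of its RNA per cell cannot be told apart.

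Of the 10 feedback genes, 5 fell and 1 rose after WDR5 silencing. DUSP4, DUSP5, SPRY1, SPRY2 and SPRED2 were lower, by 1.20-fold to 1.50-fold, and DUSP1 was 1.69-fold higher. DUSP6, SPRY4, SPRED1 and PHLDA1 did not pass the test. The silencing was accompanied by widespread change, and the share of feedback genes called (6 of 10, 60%) was close to the 56.5% of all tested genes called at an adjusted p under 0.05. By direction, 5 of 10 fell against 29.9% of all tested genes, and 1 of 10 rose against 26.6%. The same 6 genes were those whose 3 shWDR5 libraries all lay outside the range of the 3 shLuc libraries, as was true of 62.3% of all tested genes. The median log2 fold change of the 10 was -0.15, beside -0.01 over all tested genes. Because counts were scaled by library, fold changes are relative to the other genes. A change in total RNA per cell would not be seen. Under a stricter rule, which also asked for an absolute log2 fold change of at least 0.6 and a mean above 0.5 RPKM in either group, DUSP1 alone was called. That rule called 7.9% of all tested genes higher and 10.5% lower. DUSP5 lay just short of its fold limit, at -0.59. Which feedback genes met the fold limit changed with the fit. With library size only, DUSP4 and DUSP5 met it too, at -0.62 and -0.64. Without shWDR5 replicate 2, DUSP1 fell short at 0.57 and DUSP5 met it at -0.67. DUSP5 also met it without shLuc replicate 2, at -0.61, and without shLuc replicate 3, at -0.68.

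**Figure D1:**
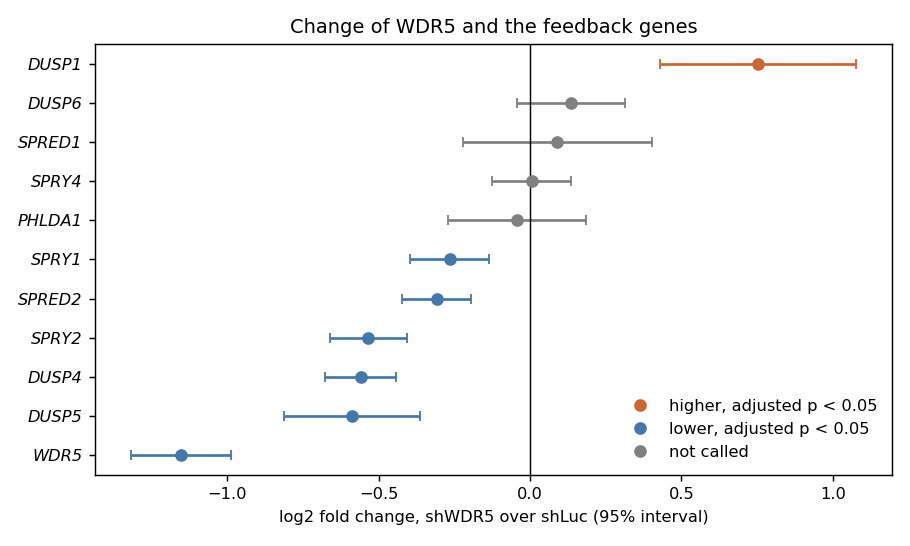
Log2 fold change of shWDR5 over shLuc (horizontal axis) for WDR5 and the 10 feedback genes, with 95% intervals from the quasi-likelihood fit on 3 libraries per group. DUSP1 lies to the right of 0, DUSP4, DUSP5, SPRY1, SPRY2 and SPRED2 lie to the left, and the intervals of DUSP6, SPRY4, SPRED1 and PHLDA1 cross 0.

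DUSP1 (chr5:172195093-172198203, hg19, minus strand) encodes an inducible nuclear phosphatase that acts on p38, JNK and ERK and is an immediate-early gene. It was the only feedback gene that rose. DUSP1 was at 16.0, 15.01 and 20.3 CPM in shLuc replicates 1, 2 and 3 and at 26.2, 35.4 and 24.7 CPM in shWDR5. All shWDR5 libraries were above all shLuc libraries, with shWDR5 replicate 2 the highest. The log2 fold change was 0.75 (SE 0.146, 95% interval 0.43 to 1.08, adjusted p = 0.00133), and 16.7% of tested genes changed by more in either direction. The spread among replicates was wide for DUSP1, with a coefficient of variation of 16.4% in shLuc and 20.1% in shWDR5. Its promoter is shown because it was also the only gene, of 8 matched to RefSeq, whose most upstream promoter window held any of the motifs searched. The 250 bases before the RefSeq start site (GRCh38.p14, chr5:172771196-172771445, minus strand) are given 5′ to 3′ with the matches in capitals.

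DUSP1: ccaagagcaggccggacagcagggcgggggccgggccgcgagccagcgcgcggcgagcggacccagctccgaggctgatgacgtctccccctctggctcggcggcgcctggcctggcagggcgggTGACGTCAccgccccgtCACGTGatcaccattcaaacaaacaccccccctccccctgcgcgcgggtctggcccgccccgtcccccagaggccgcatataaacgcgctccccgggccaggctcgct

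The first capitals are TGACGTCA, the full cyclic AMP response element (CRE), which began 125 bases before the start site, and the second are CACGTG, an E-box, which began 108 bases before it. Among 35116 RefSeq promoter windows of 300 bases (250 before the start and 50 after it), 1.85% held TGACGTCA and 7.26% held CACGTG on either strand. A match of letters is a description of the window only.

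DUSP4 (chr8:29190579-29208267, hg19, minus strand) encodes an inducible nuclear phosphatase of ERK and JNK. It was the third most abundant of the 10 genes per length. DUSP4 was at 525, 521 and 556 CPM in shLuc replicates 1, 2 and 3 and at 354, 376 and 357 CPM in shWDR5. The groups were well apart, and replicates within each group differed by less than 1.07-fold from highest to lowest. DUSP4 was 1.47-fold lower in shWDR5 (log2 fold change -0.56, SE 0.0523, 95% interval -0.68 to -0.44, adjusted p = 9.76e-06).

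DUSP5 (chr10:112257625-112271302, hg19, plus strand) encodes a nuclear phosphatase that is selective for ERK. DUSP5 was at 71.8, 62.2 and 54.8 CPM in shLuc replicates 1, 2 and 3 and at 41.0, 46.3 and 38.5 CPM in shWDR5. The lowest shLuc library, replicate 3, was above the highest shWDR5 library, replicate 2. DUSP5 was 1.50-fold lower (log2 fold change -0.59, SE 0.101, 95% interval -0.81 to -0.36, adjusted p = 0.000622).

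DUSP6 (chr12:89741602-89746636, hg19, minus strand), which encodes the cytoplasmic phosphatase selective for ERK, did not pass the test. DUSP6 was at 389, 457 and 371 CPM in shLuc replicates 1, 2 and 3 and at 417, 450 and 470 CPM in shWDR5. The groups overlapped because shLuc replicate 2 was higher than 2 of the shWDR5 libraries. The 95% interval of its log2 fold change ran from -0.04 to 0.31 (adjusted p = 0.176). Without shLuc replicate 2 the log2 fold change was 0.22 and DUSP6 passed the test (adjusted p = 0.0337, edgeR).

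Among the Sprouty genes, SPRY1 and SPRY2 fell. Sprouty proteins are inducible inhibitors that act between the growth factor receptor and RAF. SPRY2 (chr13:80910112-80915086, hg19, minus strand) was at 95.9, 99.0 and 89.5 CPM in shLuc replicates 1, 2 and 3 and at 65.2, 66.1 and 65.1 CPM in shWDR5. The shWDR5 libraries were nearly equal and all below the shLuc libraries. SPRY2 was 1.45-fold lower (log2 fold change -0.53, SE 0.0569, 95% interval -0.66 to -0.41, adjusted p = 2.39e-05). SPRY1 (chr4:124317950-124324915, hg19, plus strand) was at 34.6, 36.3 and 36.5 CPM in shLuc and at 29.5, 30.4 and 29.5 CPM in shWDR5. The change of SPRY1 was smaller, 1.20-fold lower, but its groups did not overlap (log2 fold change -0.27, SE 0.059, 95% interval -0.40 to -0.13, adjusted p = 0.00306). SPRY4 (chr5:141689992-141704620, hg19, minus strand) was at 119, 116 and 106 CPM in shLuc and at 115, 115 and 112 CPM in shWDR5. The shWDR5 values of SPRY4 lay inside the shLuc range. Its 95% interval on the log2 scale ran from -0.12 to 0.13 (adjusted p = 0.95).

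The SPRED proteins carry a Sprouty-like domain and restrain RAS by recruiting neurofibromin. SPRED2 (chr2:65537985-65659656, hg19, minus strand) was at 153, 162 and 153 CPM in shLuc replicates 1, 2 and 3 and at 126, 126 and 126 CPM in shWDR5. The shWDR5 libraries agreed to within 1.005-fold and were all below shLuc. SPRED2 was 1.24-fold lower (log2 fold change -0.31, SE 0.0507, 95% interval -0.42 to -0.20, adjusted p = 0.00045). SPRED1 (chr15:38545052-38649450, hg19, plus strand) was at 87.5, 123 and 99.6 CPM in shLuc and at 91.3, 108 and 131 CPM in shWDR5. The groups of SPRED1 overlapped over most of their range. With coefficients of variation of 17.5% and 18.3%, SPRED1 was the gene with the widest interval beside DUSP1, from -0.22 to 0.40 on the log2 scale (adjusted p = 0.612).

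The promoters of SPRY2 and SPRED2 are shown as those of the 2 falling genes with the lowest adjusted p for which a RefSeq window was matched, beside that of DUSP1. Each run is the 250 bases before the most upstream RefSeq start (GRCh38.p14, minus strand), chr13:80341127-80341376 for SPRY2 and chr2:65432600-65432849 for SPRED2, 5′ to 3′.

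SPRY2: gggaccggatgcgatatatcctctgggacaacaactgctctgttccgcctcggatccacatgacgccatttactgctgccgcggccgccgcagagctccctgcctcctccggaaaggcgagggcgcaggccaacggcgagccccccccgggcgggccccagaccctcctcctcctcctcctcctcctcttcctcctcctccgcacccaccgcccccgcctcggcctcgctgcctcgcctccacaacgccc

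SPRED2: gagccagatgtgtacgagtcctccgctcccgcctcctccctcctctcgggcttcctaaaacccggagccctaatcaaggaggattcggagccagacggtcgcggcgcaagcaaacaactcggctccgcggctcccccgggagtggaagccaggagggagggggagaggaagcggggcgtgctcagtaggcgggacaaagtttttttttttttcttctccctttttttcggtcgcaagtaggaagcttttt

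Neither run has capitals, since neither held a match. In all, 8 of the 10 genes were matched to 12 RefSeq windows, and DUSP4 and DUSP5 are named only. The motifs searched on both strands were TGACGTCA (CRE), TGACTCA or TGAGTCA (AP-1), CCGGAAGT (ETS), the CArG box of serum response factor, and CACGTG (E-box). Beside the matches in DUSP1, the only one in the 12 windows was TGACTCA, beginning 6 bases before the second, downstream start of SPRED2. The AP-1 letters occurred in 4.95% of all 35116 windows, the ETS letters in 4.14% and the CArG box in 1.29%.

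PHLDA1 (chr12:76419227-76425556, hg19, minus strand) was the most abundant of the 10 genes per length in both groups. PHLDA1 was at 973, 1264 and 1064 CPM in shLuc replicates 1, 2 and 3 and at 944, 1072 and 1190 CPM in shWDR5. The groups overlapped, and the 95% interval of the log2 fold change ran from -0.27 to 0.19 (adjusted p = 0.754).

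Levels of different genes were compared per length, as RPKM, which divides CPM by the exon length in kilobases. In shLuc, the order from high to low was PHLDA1 (186 RPKM ± 25.2, SD, n = 3), DUSP6 (120 ± 13.3), DUSP4 (72.7 ± 2.58), SPRY2 (44.9 ± 2.30), SPRED2 (33.6 ± 1.10), DUSP5 (24.9 ± 3.38), SPRY4 (20.6 ± 1.22), SPRED1 (14.3 ± 2.50), SPRY1 (11.8 ± 0.339) and DUSP1 (8.45 ± 1.39). The libraries of neighbouring genes did not overlap, although DUSP5 at its lowest, 21.7 RPKM, was barely above SPRY4 at its highest, 21.5 RPKM. SPRED1 at its lowest and SPRY1 at its highest were as close, at 12.1 and 12.0 RPKM. In shWDR5 the first 5 places were unchanged, with PHLDA1 at 181 RPKM ± 20.8 (SD, n = 3) and DUSP4 at 49.3 ± 1.67. DUSP5, at 16.6 RPKM ± 1.57, came after SPRY4, at 20.6 ± 0.383, and DUSP1, at 14.2 ± 2.86, came before SPRY1, at 9.80 ± 0.183. The shWDR5 values of SPRED1 overlapped those of both DUSP5 and DUSP1, so these 3 genes had no clear order. PHLDA1 and DUSP6 together supplied most of the summed RPKM of the set, at 34.6% and 22.2% in shLuc and 36.4% and 26.5% in shWDR5.

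**Figure D2:**
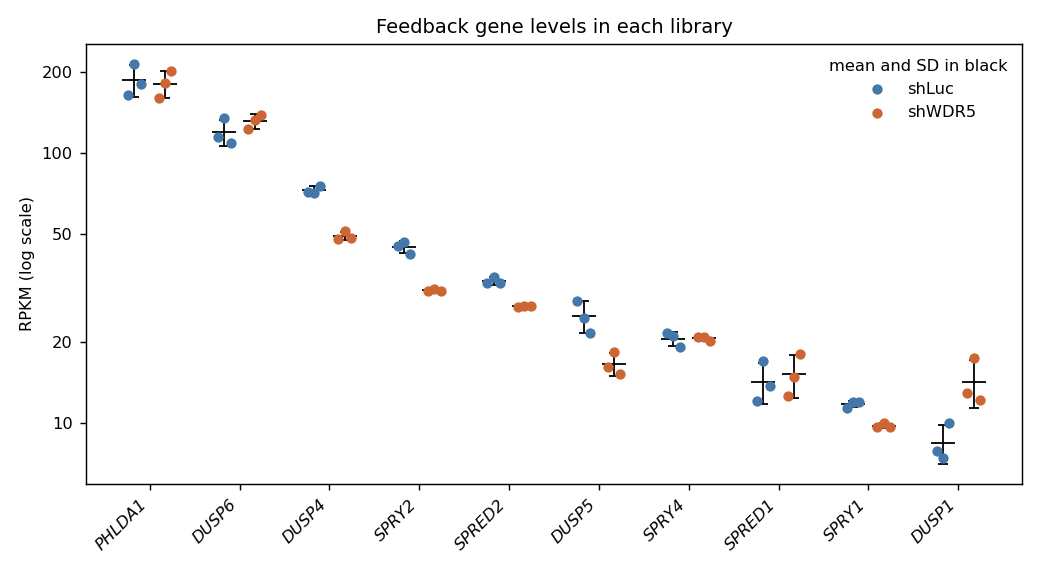
RPKM on a log axis for each feedback gene in the 3 shLuc (blue) and 3 shWDR5 (orange) libraries, with the mean and SD in black, ordered by the shLuc mean. The genes span from 8.45 RPKM for DUSP1 to 186 RPKM for PHLDA1 in shLuc, and only for DUSP1 do the shWDR5 points all lie above the shLuc points.

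Summed by family, the Sprouty genes stood at 77.3 RPKM ± 3.26 (SD, n = 3) in shLuc and 61.4 ± 0.738 in shWDR5, with no overlap between groups. The 4 DUSP genes summed to 226 RPKM ± 10.8 in shLuc and 211 ± 10.1 in shWDR5. Their totals overlapped, since DUSP6 was the largest term and was not called. The SPRED pair summed to 47.8 RPKM ± 3.55 in shLuc and 42.3 ± 2.79 in shWDR5, and these overlapped, with shLuc replicate 1 below shWDR5 replicate 3. Over all 10 genes the sum was 537 RPKM ± 40.2 in shLuc and 496 ± 31.5 in shWDR5, and these sums overlapped as well.

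Ratios of relatives were taken within each library, since these do not depend on how libraries were scaled. They are a description with no test: each of 3 pairs, chosen after the fold changes were seen, joined a gene that fell and a relative that was not called. The ratio of DUSP4 to DUSP6 in RPKM was 0.624, 0.528 and 0.693 in shLuc replicates 1, 2 and 3 and 0.393, 0.387 and 0.35 in shWDR5. The ratio of SPRY2 to SPRY4 was 2.11, 2.24 and 2.21 in shLuc and 1.48, 1.50 and 1.53 in shWDR5. In both pairs every shWDR5 library was below every shLuc library. The ratio of SPRED2 to SPRED1 was 2.73, 2.05 and 2.40 in shLuc and 2.15, 1.83 and 1.50 in shWDR5, and these overlapped.

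**Figure D3:**
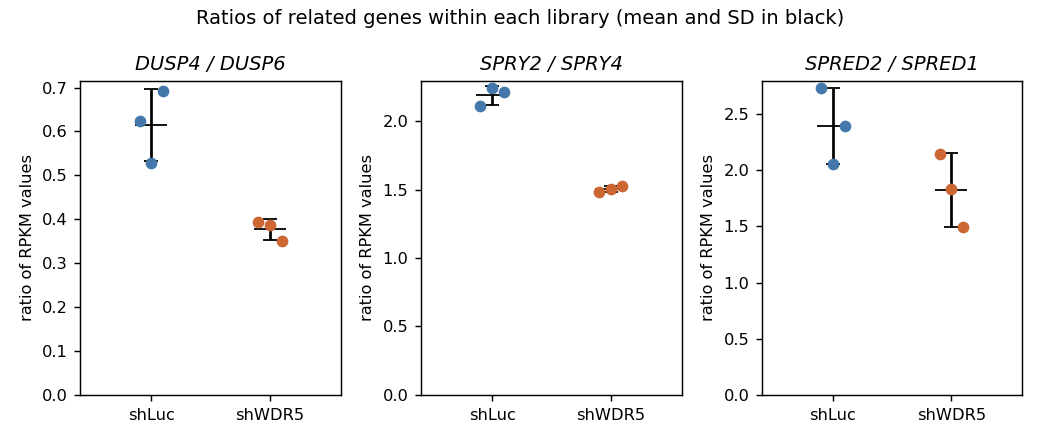
Ratio of the RPKM values of related feedback genes within each library, for 3 shLuc (blue) and 3 shWDR5 (orange) libraries, with the mean and SD in black and axes from 0. The mean ratio of DUSP4 to DUSP6 was 0.615 in shLuc and 0.377 in shWDR5, that of SPRY2 to SPRY4 was 2.19 and 1.50, and the libraries overlap only for SPRED2 to SPRED1.

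The other genes of the pathway were counted by role. The lists were chosen with earlier results of these data known, so their counts are descriptions only. They are to be read against all tested genes, of which 56.5% were called, 26.6% higher and 29.9% lower. Of 7 other MAP kinase phosphatase genes tested, 2 rose, 1 fell and 4 were not called, so that 42.9% were called. DUSP9 fell (adjusted p = 0.0043) but was scarce, at 0.249 RPKM in shLuc and 0.126 in shWDR5. The risers, named after their values were seen, were DUSP7, a cytoplasmic ERK phosphatase like DUSP6, from 50.9 to 76.8 RPKM, and DUSP10, which acts on JNK and p38, from 4.12 to 5.56 RPKM. Of 7 other genes tested for Sprouty, SPRED and receptor feedback (SPRY3 had too few reads), 3 rose and 3 fell, or 85.7% called. SPRED3, ERRFI1 and PHLDA3 rose, IL17RD, LRIG1 and PHLDA2 fell, and PEBP1 was not called. All 7 are named to show the list, and whether ERK induces them was not tested. Without shLuc replicate 3, 2 of these genes rose and 2 fell. IL17RD, or Sef, a transmembrane inhibitor of FGF and ERK signalling, fell from 28.7 to 9.86 RPKM (log2 fold change -1.54, SE 0.0779, adjusted p = 2.44e-07). SPRED3, the third SPRED gene, rose from 1.55 to 2.88 RPKM (log2 fold change 0.89, adjusted p = 3.96e-05). SPRED genes thus went both ways, with SPRED2 lower, SPRED3 higher and SPRED1 not called.

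Upstream of the feedback genes, 8 of 13 receptor and ligand genes fell and 1 rose, so that 69.2% were called against 56.5% of all tested genes. The receptors ERBB3 and MET fell from 14.4 to 6.37 RPKM and from 40.5 to 18.9 RPKM (adjusted p = 2.03e-07 and 2.06e-07). The EGFR ligands AREG and EREG fell (log2 fold changes -0.72 and -0.63), whereas HBEGF, another EGFR ligand, rose from 191 to 294 RPKM (log2 fold change 0.62, adjusted p = 7.86e-05). Of 14 RAS and adaptor genes, 4 rose and 4 fell, and 57.1% called is near the share of all tested genes. That even split depended on the fit, with 2 higher and 6 lower under library size only or without shWDR5 replicate 3, 2 and 7 without shLuc replicate 1, 2 and 4 without shLuc replicate 3 or shWDR5 replicate 2, and 4 and 8 with the replicate block. KSR1, a scaffold of RAF and MEK, was among those that fell, at -1.15 on the log2 scale. KSR1 was scarce, at 0.704 RPKM in shLuc and 0.317 in shWDR5. Of 9 genes for RAF, MEK, ERK and the RSK kinases, 3 rose and 3 fell (66.7% called). Among the latter was the ERK-activated kinase gene RPS6KA1, at -0.78. With DESeq2, or without shLuc replicate 1 or 3 or shWDR5 replicate 2 or 3, 3 rose and 2 fell. The same counts came without both replicate 1 libraries. Of 10 JNK and p38 pathway kinase genes, 2 rose and 5 fell (70% called). The same number fell in every alternative fit, but 1 rose with library size only, without shLuc replicate 2 or without shWDR5 replicate 1, and 3 rose with the replicate block. MAPK9, which encodes JNK2, MAPK13, which encodes p38 delta, and MAP2K6, a p38 activator, were at -0.83, -0.71 and -1.23 on the log2 scale, but MAP2K6 was scarce, at 0.472 RPKM in shLuc and 0.197 in shWDR5.

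Among 12 other genes that ERK signalling is known to induce, 7 rose and 4 fell (91.7% called, against 56.5% of all tested genes). Their median log2 fold change was 0.27, beside -0.15 for the feedback genes and -0.01 over all tested genes. This list too was chosen with earlier results of these data known, so its share and median are descriptions only. EPHA4, an ephrin receptor gene, rose from 3.43 to 5.44 RPKM (log2 fold change 0.66, adjusted p = 5.96e-06). Of genes named after their values were seen, EGR1 and IER3 were at 0.42 and 0.46 on the log2 scale and FOSL1, an AP-1 gene, at -0.22. ETV4, an ETS factor gene often measured together with SPRY and DUSP genes, was at -0.38, its relative ETV1 at -0.44 and its relative ETV5 at 0.26. The ETV genes lay under the absolute log2 limit of 0.6 used for naming, and are exceptions named with their values known. Without shWDR5 replicate 2, 6 of the 12 rose and 1 fell, and without shLuc replicate 2, 6 rose and 2 fell. Taking the 7 other lists together, 50 of 72 tested genes (69.4%) were called, 22 higher and 28 lower, beside 56.5% of all tested genes.

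**Figure D4:**
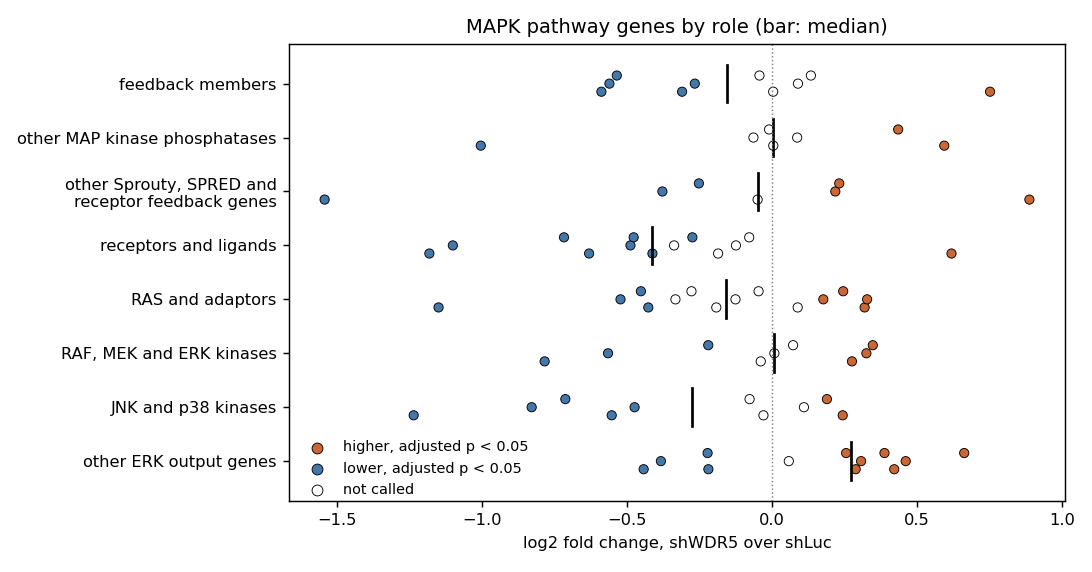
Log2 fold change of shWDR5 over shLuc for each tested gene (points) of the feedback set and of 7 other MAP kinase pathway lists (rows), with the median of each list as a bar. Orange points rose, blue points fell and open points were not called, and the medians run from -0.41 for receptors and ligands to 0.27 for other ERK output genes.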

How the data were processed

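Poly-A RNA of 3 shLuc and 3 shWDR5 libraries of MCF10DCIS.com cells was prepared with the TruSeq RNA kit. The authors deposited raw read counts per gene, from TopHat2 2.1.0 alignment to hg19 (GRCh37) and featureCounts, per the submitters' processing notes; strand and multi-mapping settings are not given in the sources used here. The kit does not mark strand, and no exon of the 10 genes overlapped an exon of another gene in the table. A second deposited table holds the authors' own edgeR fold changes and p-values and was not used. Gene positions come from the count table, and the deposited exon length (other unit, bases) was used for RPKM.

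Counts were tested with edgeR 4.0.16 in R 4.3.3 (filterByExpr, TMM, glmQLFit, glmQLFTest, no covariate), and genes were called at a Benjamini-Hochberg adjusted p under 0.05. Intervals are 95% and use the fit's degrees of freedom. CPM and RPKM use TMM-scaled library sizes. The alternatives were RLE factors, library size only, no filter, DESeq2 1.42.0, a robust prior, a replicate block, leaving out each library, and the stricter rule taken from the study's figure legend. Leaving out replicate 1 of both groups was added after seeing the data. The named genes were WDR5, the 10 feedback genes and, of each other list, called genes with an absolute log2 fold change of at least 0.6 (at most 5), with exceptions stated. The members and lists were chosen with earlier results of these data known. Promoter windows are from RefSeq (GRCh38.p14), another build than the counts, and no coordinates were converted.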

Additional observations from a re-analysis of the deposited data

How the results depend on the processing

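DUSP1, DUSP4, DUSP5, SPRY1, SPRY2, SPRED2 and WDR5 kept their direction and were called under all 13 alternative fits. Their log2 fold changes ranged from 0.57 to 0.89 for DUSP1, -0.62 to -0.53 for DUSP4, -0.68 to -0.44 for DUSP5, -0.32 to -0.25 for SPRY1, -0.59 to -0.50 for SPRY2, -0.37 to -0.29 for SPRED2 and -1.21 to -1.09 for WDR5. The count of feedback genes called was 6, and 7 without shLuc replicate 2. The sign turned only for genes that were not called. SPRY4 was at -0.052 with library size only, -0.0048 with no filter, -0.045 without shLuc replicate 3, -0.0026 without shWDR5 replicate 1 and -0.0026 without shWDR5 replicate 2, and ranged up to 0.055 (without shLuc replicate 1). SPRED1 was at -0.00086 without shLuc replicate 1 and -0.056 without shWDR5 replicate 3, and up to 0.23 without shLuc replicate 2. PHLDA1 was at 0.061 without shLuc replicate 2 and 0.040 without shWDR5 replicate 1, and down to -0.13 without shWDR5 replicate 3. The cause was not tested. The stricter rule adds limits on both fold and RPKM, and it left 2962 genes in all (from 9112), 1 feedback gene (DUSP1), 0 other phosphatases, 2 other Sprouty, SPRED and receptor feedback genes, 5 receptors and ligands, 1 RAS and adaptor gene, 1 RAF, MEK and ERK kinase, 2 JNK and p38 kinases and 1 other ERK output gene. DUSP9 and MAP2K6 passed its fold limit and were lost on RPKM. The count of other ERK output genes ranged from 7 to 11 when 1 library was left out. With library size only, 40.3% of called genes were higher, against 47.1% with TMM. With the replicate block, 10412 genes and the same 6 feedback genes were called. Deviations of same-numbered libraries correlated across genes at 0.372, 0.0358 and 0.116 for numbers 1, 2 and 3, and shLuc replicate 2 correlated best with shWDR5 replicate 3 (0.21). Both replicate 1 libraries stood apart on the second principal component, at 19.1 in shLuc and 15.1 in shWDR5, and the labels do not say whether same-numbered libraries were handled together.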

Other observations

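The feedback genes differed in how far replicates spread, a pattern picked out after the values were seen. DUSP6, SPRED1 and PHLDA1, none of which was called, were all highest in replicate 2 among the shLuc libraries. Among the shWDR5 libraries all 3 were highest in replicate 3 and lowest in replicate 1. Their coefficients of variation in CPM lay between 6.11% for DUSP6 in shWDR5 and 18.3% for SPRED1 in shWDR5. SPRY1, SPRY2, SPRY4, SPRED2 and DUSP4 varied less, from 0.229% for SPRED2 in shWDR5 to 5.96% for SPRY4 in shLuc. DUSP5, which was called, spread as widely as the first 3 genes, at 13.6% in shLuc and 9.5% in shWDR5. DUSP1 was highest in shLuc replicate 3 and shWDR5 replicate 2, and so did not follow the first 3 genes. With 3 libraries per group these orders were not tested.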
